A study of Mus musculus with 15 samples.

Results

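The 7 control libraries of a mouse RPE/choroid RNA-seq series were described on their own, 7 of 15 libraries in all, chosen by the control label in their titles. RPE/choroid is the complex of retinal pigment epithelium (RPE), Bruch's membrane and choroid that lies behind the neural retina. The controls carried Abca1/Abcg1 flox/flox LysM-Cre, that is, floxed alleles of both sterol transporter genes with Cre driven from Lyz2, a gene of myeloid cells, and they also received AP20187 (i.p), the dimerizer drug of the series. The other 8 libraries came from INK-ATTAC mice, in which AP20187 removes p16Ink4a-positive cells, and were not used here. The dosing schedule is stated for the INK-ATTAC mice only. No age or sex is stated here for any control, nor whether 2 libraries can share an animal, so the standard deviations (SD) below measure the spread between these 7 libraries and may hold technical spread. What the descriptions address is which transcripts make up most of this tissue sample and which differ most from one control library to the next.

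The RPE is a single layer of pigmented cells that recycles the visual chromophore, engulfs shed photoreceptor outer segments, stores melanin and moves ions, lactate and retinoids between the blood and the photoreceptors. The choroid beneath it holds a dense capillary bed, melanocytes, fibroblasts, mast cells, macrophages, nerves and smooth muscle, and the sclera, eye muscles, lens, ciliary body, conjunctiva and retina lie next to it. RPE identity genes include the visual cycle enzymes and binding proteins (Rpe65, Rlbp1, Lrat, Rdh5, Rgr), and their high level is a known feature of this tissue.

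Between 39121503 counts (control 4) and 59974025 counts (control 7) were assigned to genes per library, with a mean of 49911319 ± 6938358 (SD, n = 7). Protein-coding genes took 94.9 ± 0.63% of these counts. Of 21534 protein-coding genes in the table, 18468 had a count in at least 1 control library and 13033 had a mean of at least 1 count per 1000000 counts (CPM, scaled with TMM). A mean of at least 100 CPM was reached by 1545 genes, at least 1000 CPM by 87, and at least 10000 CPM by 7. Any pair of libraries correlated at 0.951 to 0.981 across genes (Pearson's r of log2 CPM, a description, since genes are not independent replicates). Control 5 had the highest share of counts on the mitochondrial chromosome, 3.67%, against a mean of 2.79 ± 0.51%.

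The genes of the design were measured as follows. Abca1 ranged from 37.5 CPM (control 5) to 61.4 CPM (control 6), with a median of 49.8 CPM, and Abcg1 from 30.6 CPM (control 1) to 72.5 CPM (control 6), with a median of 50.6 CPM. These counts come from all cells of the complex, so they do not check a deletion restricted to myeloid cells. Lyz2, the gene whose promoter drives the Cre, ranged from 1139 to 1456 CPM with an SD of 0.13 on the log2 CPM scale. Cdkn2a, the p16Ink4a gene, had counts in 4 libraries and reached at most 0.0497 CPM, which is below the 0.0746 CPM that 3 counts are worth in the least deeply sequenced library. Fkbp1a, the cellular FKBP12 protein from which dimerizer domains are taken, ranged from 220.4 to 278 CPM, and Casp8, the apoptosis initiator, from 21.7 to 26.5 CPM.

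A small set of transcripts dominated the complex. Rgr, Ptgds and Ttr together held 9.44 ± 0.61% of protein-coding counts, with a range of 8.56% to 10.03% over the 7 libraries. The 10 leading genes held 17.4 ± 1.03%, the leading 100 held 37.1 ± 1.20% and the leading 1000 held 66.0 ± 1.10%. The first 322 genes in rank accounted for 50% of the protein-coding counts. Counts grow with transcript length, so a length-normalized level was also computed (counts per kilobase of exon, scaled to a total of 1000000, here called TPM). On that scale 130 genes held 50% of the total, or 176 when the length was the median over a gene's annotated protein-coding transcripts.

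Rgr, the RPE and Müller cell retinal G protein-coupled receptor that takes part in chromophore recycling, held the largest share of counts, 3.54 ± 0.35%. It lies on chromosome 14 at 37034909 to 37048964 (GRCm38) and ranged from 27641 CPM (control 6) to 40904 CPM (control 1). Ptgds, the lipocalin-type prostaglandin D synthase (chromosome 2, 25466709 to 25470046), followed with 3.36 ± 0.18% and a range of 27864 to 35623 CPM. Ttr, transthyretin, a carrier of thyroxine and of retinol-binding protein that the RPE secretes, held 2.54 ± 0.19% and ranged from 21603 to 27671 CPM. These 3 genes had SDs of 0.20, 0.13 and 0.13 on the log2 CPM scale, and for each the highest library was under 1.5 times the lowest.

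On the length-normalized scale the order was led by Ttr with 54993 ± 3779 TPM and Ptgds with 52262 ± 2454. The ranges of these 2 genes over libraries overlapped, 50482 to 61760 for Ttr and 48334 to 55075 for Ptgds, so their order was not separated by the spread between libraries. Cst3, the cysteine protease inhibitor cystatin C (chromosome 2, 148871722 to 148875692), followed at 35731 ± 3452, and its range of 29722 to 39520 overlapped neither Ptgds above it nor Rgr below it. Rgr at 18953 ± 1783 and Apoe, the apolipoprotein of lipid particles, at 18054 ± 2191 overlapped. With the median transcript length in place of all exons, Ptgds ranked 1, Cst3 ranked 2 and Ttr ranked 3, so the order within the leading 3 depended on the length used.

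**Figure D1:**
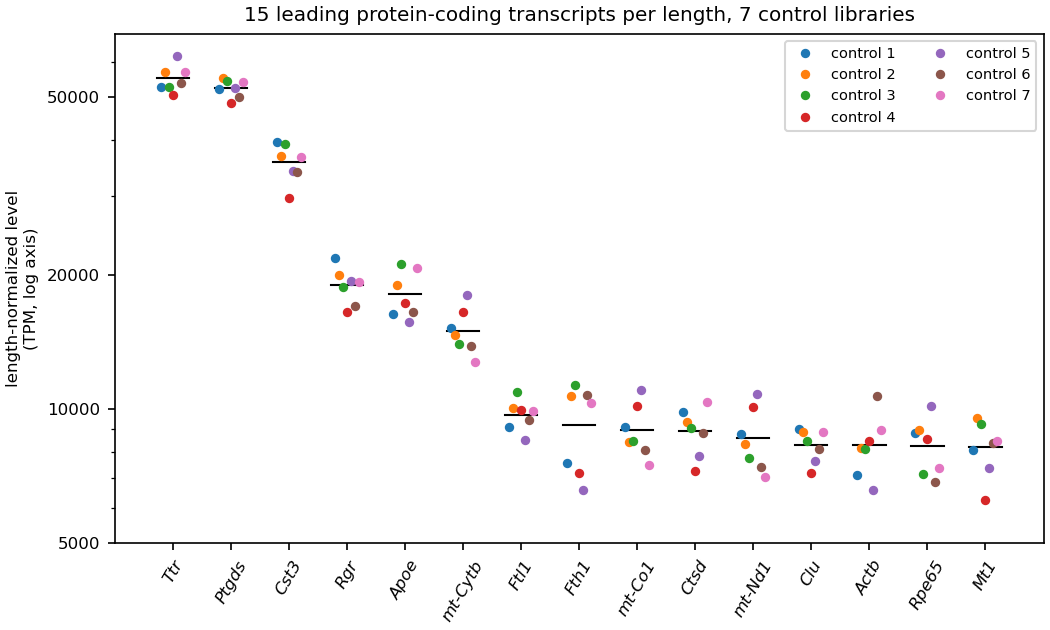
Length-normalized level (TPM, log axis) of the 15 leading protein-coding genes, in order of their mean, with 1 point for each of the 7 control libraries and a bar at the mean. Ttr and Ptgds overlap at the top, Cst3 stands apart at 29722 to 39520, and the genes from Ftl1 onward overlap one another.

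The leading genes fell into a few roles. Iron storage was represented by both ferritin subunits, Ftl1 at 9701 ± 768 and Fth1 at 9202 ± 1985 TPM. Lysosomal proteases were represented by Ctsd, cathepsin D, at 8940.0 ± 1092, and Ctsb, cathepsin B, at 2195 ± 243. Clu, a secreted chaperone, reached 8321 ± 690, and Enpp2, autotaxin, which makes lysophosphatidic acid and is secreted by the RPE, reached 2995 ± 328. Among mitochondrially encoded genes, mt-Cytb of complex III was highest at 14982 ± 1765, and mt-Co1 of complex IV and mt-Nd1 of complex I had 8968 ± 1231 and 8609 ± 1398. Mt1, the metal-binding metallothionein 1, had 8200 ± 1125. Fth1 was the least even of the leading genes, from 8648 CPM (control 5) to 15606 CPM (control 3). About 34.4% of the exon bases of Ctsd are shared with Gm49369 on the same strand, so reads of these 2 genes could have been split in counting.

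RPE identity genes were high. The list of RPE visual cycle and identity genes held 9.63 ± 0.73% of protein-coding counts. In all, 29 of its 30 genes were found in the table, and each of the 29 had a mean of at least 1 CPM. Rpe65, the isomerohydrolase of the visual cycle, ranged from 4489.8 CPM (control 6) to 7411 CPM (control 5) with a median of 5993 CPM. Rlbp1, the retinaldehyde-binding protein shared by RPE and Müller glia, ranged from 3774 to 5299 CPM. Otx2, a transcription factor of the RPE, ranged from 273 to 367 CPM, and Mertk, the receptor for outer segment uptake, from 87.2 to 113 CPM. The mean log2 CPM of the RPE list was highest in control 1 (9.39) and lowest in control 6 (9.08), an SD of 0.10.

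A gene was counted as variable when the SD of its log2 CPM over the 7 libraries was at least 0.5. Over all 13033 protein-coding genes with a mean of at least 1 CPM, 1355 did so, 10.4%, and the median SD was 0.22. With a median of at least 1 CPM in place of the mean it was 1246 of 12901 genes (9.66%), and with a mean of at least 10 CPM 312 of 8409 (3.71%). By that measure 1 of 29 RPE genes was variable, and the median SD of the list was 0.19. The median SD over all genes fell with level up to 100 to 300 CPM and then rose slightly. Of genes with a mean of 100 to 300 CPM 3.36% were variable and the median SD was 0.16. Of those with 300 to 1000 CPM it was 2.45% and 0.17, and of those with at least 1000 CPM 1.15% and 0.19. The share in the RPE list was near that of genes of high level, but its variable gene was not of high level. It was Best1, the bestrophin-1 chloride channel of the RPE, with a mean of 3.23 CPM. Of genes with 3 to 10 CPM 13.5% were variable. Best1 had 1.09 CPM in control 5 and 2.39 to 4.23 CPM in the other libraries. Without control 5 its SD fell from 0.68 to 0.30, so this call rested on that library.

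Of 15 melanin and melanosome genes over the filter 0 were variable, and the median SD was 0.19, also near that of all genes of high level. Dct, Tyrp1 and Pmel, 2 enzymes of melanin synthesis and the melanosome fibril protein, had SDs of 0.12, 0.16 and 0.18, and Dct ranged from 2604 CPM (control 1) to 3348 CPM (control 2). The largest SD in this list was 0.41, for Gpnmb, a glycoprotein also made by macrophages, which ranged from 1501 CPM (control 5) to 3169.7 CPM (control 7). The level of the list had an SD of 0.05 as the mean of its members and 0.15 as their median. The counts of variable genes were 0 of 14 for the common reference genes, 0 of 16 for glycolysis, 1 of 77 for cytosolic ribosomal proteins and 1 of 17 for the circadian clock. They are read against 10.4% of all genes over the filter and 3.71% of those with a mean of at least 10 CPM. In the clock list the variable gene was Per1, a light- and glucocorticoid-responsive clock gene, at 4.71 CPM in control 5 and 15 CPM in control 6, while Bhlhe41, a clock-linked repressor, ranged from 475 to 731 CPM.

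The median SD fell with level up to 300 CPM. Among genes with a mean of 1 to 3 CPM the median SD was 0.45 and 39% were variable. Between 100 and 300 CPM the median SD was 0.16 and 3.36% were variable. For genes of 1 to 3 CPM the median SD that counting error alone gives was 0.15 on this scale, below the median measured. The common biological coefficient of variation, the spread between libraries beyond counting error in edgeR, was 0.236.

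The genes with the smallest SD among those with a mean of at least 10 CPM were Ddx24, Rrp8, Plk2, Fermt2, Rtf2, Hif1an, Zmynd11, Phf14, Reep5 and Gpd1l, all with an SD of 0.03 to 0.04. Ddx24, an RNA helicase (chromosome 12, 103407982 to 103425830), ranged from 122 CPM (control 6) to 129 CPM (control 3). Rrp8, a nucleolar methyltransferase, ranged from 18.6 to 19.9 CPM. None of the common reference genes was among these 10: Actb, cytoplasmic actin, had an SD of 0.17 and Gapdh an SD of 0.31.

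**Figure D2:**
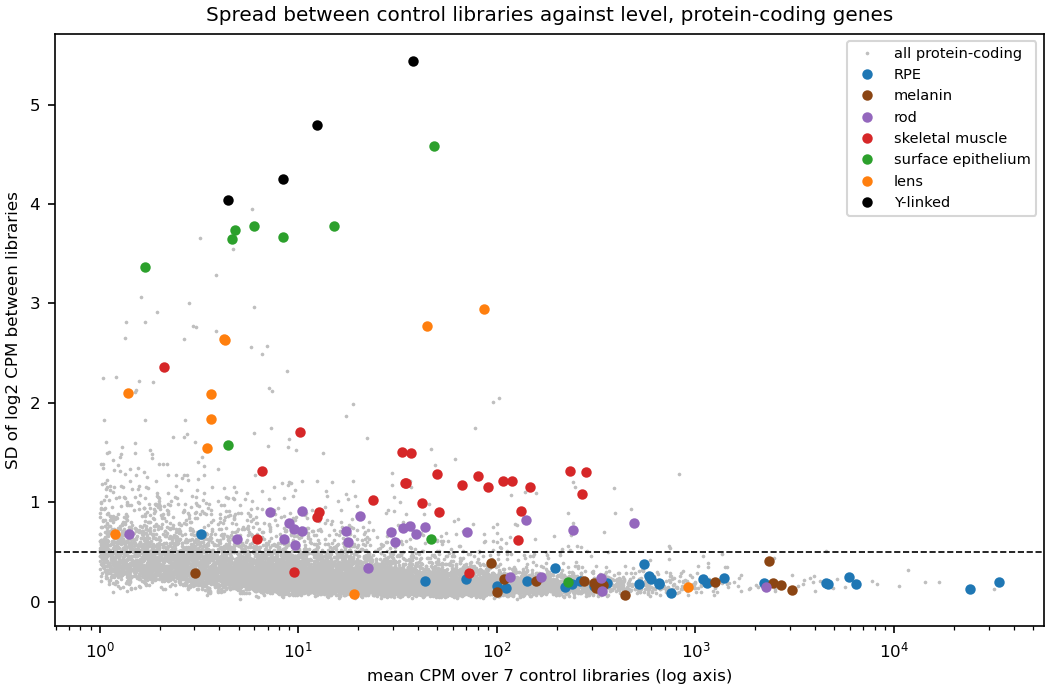
SD of log2 CPM over the 7 control libraries against mean CPM (log axis) for 13033 protein-coding genes, with 7 gene lists in colour and a dashed line at an SD of 0.5. RPE and melanin genes lie to the right under the line except Best1, while most of the muscle, rod, lens and surface epithelium genes that passed the level filter lie above it.

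The most variable genes grouped by which libraries were high. An SD of at least 1 was found for 219 genes, 1.68% of those measured. Each of these was split at the largest gap between its 7 ordered log2 CPM values. The most common split, for 44 genes, set control 2 alone below the rest. For 29 genes controls 4 and 6 were above the others, for 26 genes control 5 was alone below, for 19 genes controls 1, 3, 4 and 5 were above, and for 13 genes control 3 was alone above. In a bulk tissue sample, fewer cells of a type and less RNA per cell cannot be told apart, and the labels do not say how each piece was cut from the eye.

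Ddx3y and Eif2s3y, which are encoded on the Y chromosome, had the largest SDs of the genes over the filter, 5.44 and 4.79, above the 4.58 of Krt15. Ddx3y, an RNA helicase, had 81.2 to 97.0 CPM in controls 1, 2 and 3 and 0 to 0.137 CPM in controls 4 to 7. Eif2s3y, Uty and Kdm5d followed the same division. In controls 6 and 7, where Ddx3y had no count, 3 counts would be 0.0553 and 0.0487 CPM. Xist, the non-coding RNA of the inactive X chromosome, was in the other direction, at 0.644 to 0.909 CPM in controls 1 to 3 and 69.5 to 95 CPM in controls 4 to 7. Beside the 4 Y-linked genes, 1 further gene with an SD of at least 1 had its largest gap between the same libraries. It was Egr1, an immediate early transcription factor, with 55.6 to 69.4 CPM in controls 1 to 3 and 11.3 to 24.4 CPM in controls 4 to 7. The part of this division in the other results was not tested.

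Surface epithelium keratins were high in controls 4 and 6 alone. Krt15, a keratin of basal stratified epithelium (chromosome 11, 100131758 to 100135928), had 186 CPM in control 4 and 149 CPM in control 6, and 0.0973 to 0.599 CPM in the other 5 libraries, which is 6 to 29 counts. Krt4, a keratin of mucosal epithelium, had 50.3 and 54.5 CPM against 0.0973 to 0.606 CPM, and Krt13, its usual partner, had 15 and 18.3 CPM against 0 to 0.165 CPM. Krt5 and Krt14, the basal cell pair, had 22.2 and 32.3 CPM and 14.7 and 17.5 CPM in controls 4 and 6. Krt5 also had 3.85 CPM in control 3, where the other 4 of these keratins were under 1 CPM.

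Of 20 genes in the corneal and surface epithelium list, 10 had a mean of at least 1 CPM and 9 of these 10 were variable, read against 10.4%. These passed the level filter mostly through controls 4 and 6, and only 3 of the 20 had a median of at least 1 CPM, so the 9 are not the whole list. Krt12, the keratin that defines corneal epithelium, averaged 0.420 CPM and Krt16 averaged 0.0594 CPM. Perp, a desmosomal protein, was even, at 183 to 251 CPM. Aldh3a1, also variable, did not share the pattern of the keratins. It had 59.6 and 74.7 CPM in controls 4 and 6, and 57.4 and 52.5 CPM in controls 3 and 7. Wfdc18, Alox12e, Alox15, Aqp3 and Calml3 also had their largest gap below controls 4 and 6. Alox15, a lipoxygenase, had 14.2 CPM in control 4 and 5.11 CPM in control 6, and at most 0.159 CPM elsewhere, and Aqp3, a water and glycerol channel of epithelia, had 15 and 10.5 CPM against at most 0.909 CPM. Slc6a14, an amino acid transporter, was highest in control 4 alone (9.58 CPM), with 1.79 CPM in control 6.

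Lens genes were highest in control 3. Cryaa, alpha-A crystallin (chromosome 17, 31677807 to 31681733), had 527 CPM in control 3, 37.5 CPM in control 1 and 0.664 CPM in control 2, with 5.12 to 17.6 CPM in the other libraries. Crybb2, beta-B2 crystallin, had 246 CPM in control 3 and 0.498 CPM in control 2. Of 22 lens genes, 11 had a mean of at least 1 CPM and 9 of these were variable (10.4% of all genes). By the median, 6 had at least 1 CPM, of which 4 were variable (9.66% of all genes). The exceptions were Cryab, alpha-B crystallin, a small heat shock protein also made outside the lens, at 807 to 1109.8 CPM, and Bfsp2, a lens intermediate filament protein, at 18.2 to 20.8 CPM. The SD of the list's level was 1.73, and 1.11 without control 3. About 13.2% of the exon bases of Cryaa overlap an antisense gene, and 17.0% of those of Cryab overlap Hspb2 on the opposite strand.

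Rod photoreceptor transcripts were likewise highest in control 3. Sag, rod arrestin, had 330.5 CPM in control 3, 165 CPM in control 5 and 58.5 CPM in control 7, with a median of 109 CPM. All 28 rod genes had a mean of at least 1 CPM and 22 were variable, read against 10.4% of all genes over the filter. Of the even ones, Gnb1, a G protein subunit found in many cells, ranged from 2016 to 2709 CPM, Slc24a1, a sodium-calcium-potassium exchanger, from 311 to 383 CPM and Rom1, a disc rim protein, from 259 to 439 CPM. The level of the rod list in control 3 was 6.11 on the log2 CPM scale and 4.44 to 5.35 in the other libraries, and its SD fell from 0.58 to 0.39 without control 3. Among cone genes the short-wave opsin Opn1sw was also highest in control 3 (40.4 CPM, against 4.31 to 14.8 CPM), whereas the middle-wave opsin Opn1mw was highest in controls 4 (5.87 CPM) and 3 (5.55 CPM), and 4 of 9 cone genes over the filter were variable.

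Skeletal muscle genes were lowest in control 2. Myl1, a fast myosin light chain, had 45.9 CPM in control 2, 105 CPM in control 6, 151 CPM in control 7 and 616 CPM in control 1, with a median of 265 CPM. Tnnt3, fast troponin T, ranged from 45.0 to 537 CPM and Acta1, skeletal actin, from 55.2 to 515 CPM, with the same lowest and highest libraries. Of 27 muscle genes over the filter 25 were variable, against 10.4% of all genes. The level of the list spanned 3.39 to 6.23 on the log2 CPM scale. The myosin heavy chains did not all follow 1 pattern. Myh1 had 2.57 CPM in control 2 and 21 to 54.8 CPM in the rest, and its SD fell from 1.5 to 0.45 without control 2. Myh4, the fast type IIb chain, was lowest in control 7 (20.4 CPM) and highest in control 1 (225 CPM), and Sln, the calcium pump regulator sarcolipin, had no count in controls 2 and 6 and 12.3 CPM in control 7.

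**Figure D3:**
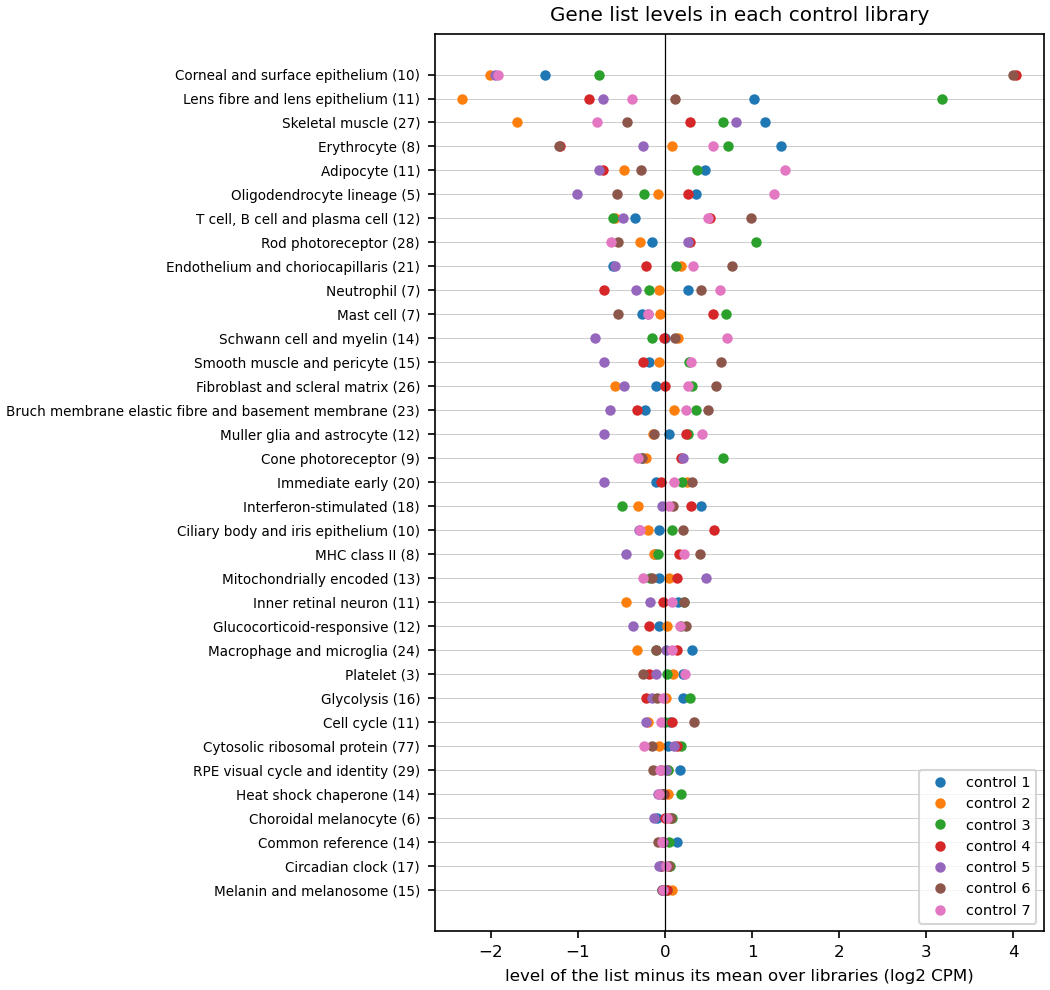
Level of 35 gene lists in each control library, as the mean log2 CPM of the members with a mean of at least 1 CPM (their number in brackets) minus the list's own mean over the 7 libraries. The melanin, clock, reference and RPE lists at the bottom stay within 0.2 of their mean, while the surface epithelium list stands 4 above it in controls 4 and 6 and the lens list 3.18 above it in control 3.

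Mmp3, Angptl7, Kera and Dpt were also lowest in control 2, although only 2 of 26 genes of the fibroblast and scleral matrix list had an SD of at least 1 with control 2 alone below the largest gap. Mmp3, a matrix metalloproteinase (chromosome 9, 7445822 to 7455975), had 96.1 CPM in control 2 and 604 to 1364 CPM in the other 6. Angptl7, a secreted protein of trabecular meshwork, cornea and sclera, had 33.0 CPM in control 2 and 177 to 392 CPM in the rest. Kera, the corneal and scleral proteoglycan keratocan, had 0.0415 CPM in control 2, which is 2 counts, and 1.39 to 18.4 CPM elsewhere, and Dpt, dermatopontin, had 0.851 CPM against 6.34 to 40.8 CPM. Without control 2 the SDs of Mmp3 and Angptl7 fell from 1.29 to 0.40 and from 1.21 to 0.44. Of 36 genes whose SD was at least 0.5 and at most 0.5 times as large without control 2, all were lower in it.

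The fibroblast and scleral matrix list was variable in 18 of 26 members, and not all followed control 2. This count and that of the Bruch's membrane elastic fibre and basement membrane list are read against 10.4% of all genes. Col1a2, a chain of type I collagen, had 859.5 CPM in control 6, 571 CPM in control 7 and 144 CPM in control 5, with a median of 290.3 CPM. Chad, a cartilage and tendon matrix protein, was also highest in control 6 (267 CPM) and lowest in control 5 (35.3 CPM). Dcn, decorin, the most abundant member by counts, was lowest in control 2 (2323 CPM) and highest in control 4 (6656 CPM). In the latter list, which is not of Bruch's membrane alone, 12 of 23 members were variable. Among them were Hspg2, perlecan, at 7.72 CPM in control 5 and 44.6 CPM in control 6, and Col4a1, a basement membrane collagen, at 9.77 and 36.6 CPM in the same libraries. Timp3, the metalloproteinase inhibitor of Bruch's membrane, was even at 3609 to 4565 CPM.

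Endothelial genes were highest in control 6. Vwf, von Willebrand factor, ranged from 10.1 CPM (control 5) to 50.2 CPM (control 6) with a median of 33.9 CPM, and Tie1, an endothelial receptor kinase, from 9.02 to 33.4 CPM. Of 21 members over the filter, 13 were variable, against 10.4% of all genes. Emcn, endomucin, the member with the highest counts, was even at 157 to 199.9 CPM, with control 1 highest and control 7 lowest, while Plvap, the diaphragm protein of fenestrated choriocapillaris, had 54.1 CPM in control 1 and 145 CPM in control 6. Globins, by contrast, were lowest in control 6. Hbb-bs, an adult beta globin, had 853 CPM in control 1, 139 CPM in control 4 and 88.5 CPM in control 6, with a median of 307 CPM, and Hba-a1, an alpha globin, 526, 78.2 and 66.5 CPM in these libraries. Hbb-bs and Hbb-bt, and Hba-a1 and Hba-a2, are near-identical copies, so the division of reads within each pair is uncertain.

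Kif5a, Gfap and Slc1a3 were lowest in control 5. The mean log2 CPM of the Müller glia and astrocyte list was also lowest there (6.96), but that of the inner retinal neuron list was lowest in control 2 (2.23, against 2.51 in control 5). Kif5a, a neuronal kinesin motor (chromosome 10, 127225696 to 127263348), had 2.91 CPM in control 5 and 70.9 to 199 CPM in the others, the largest SD of any named gene with a mean of at least 100 CPM (2.05, and 0.61 without control 5). Gfap, the astrocyte filament protein, had 4.30 CPM in control 5 and 40.8 to 182 CPM in the rest, and Slc1a3, a glial glutamate transporter, 4.12 CPM against 18.2 to 60.9 CPM. Glul, glutamine synthetase, which is also made outside glia, was even at 554 to 639 CPM. Aqp4 and Car2 of the same list did not follow control 5. Aqp4 was at its median there (2.80 CPM) and lowest in control 2 (0.540 CPM). Car2 had 12.3 CPM in control 5, also its median, and was lowest in control 6 (6.38 CPM). Unc13c, a synaptic vesicle priming protein, chosen after its values were seen, had 2.94 CPM in control 5 and 65.9 to 208 CPM in the others. For 28 genes the SD was at least 0.5 and at most 0.5 times as large without control 5, and all 28 were lower in it, while 1 further gene met the same rule by being higher. Control 5 was also the library with the highest mitochondrial share, and the part of that in these results was not tested.

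**Figure D4:**
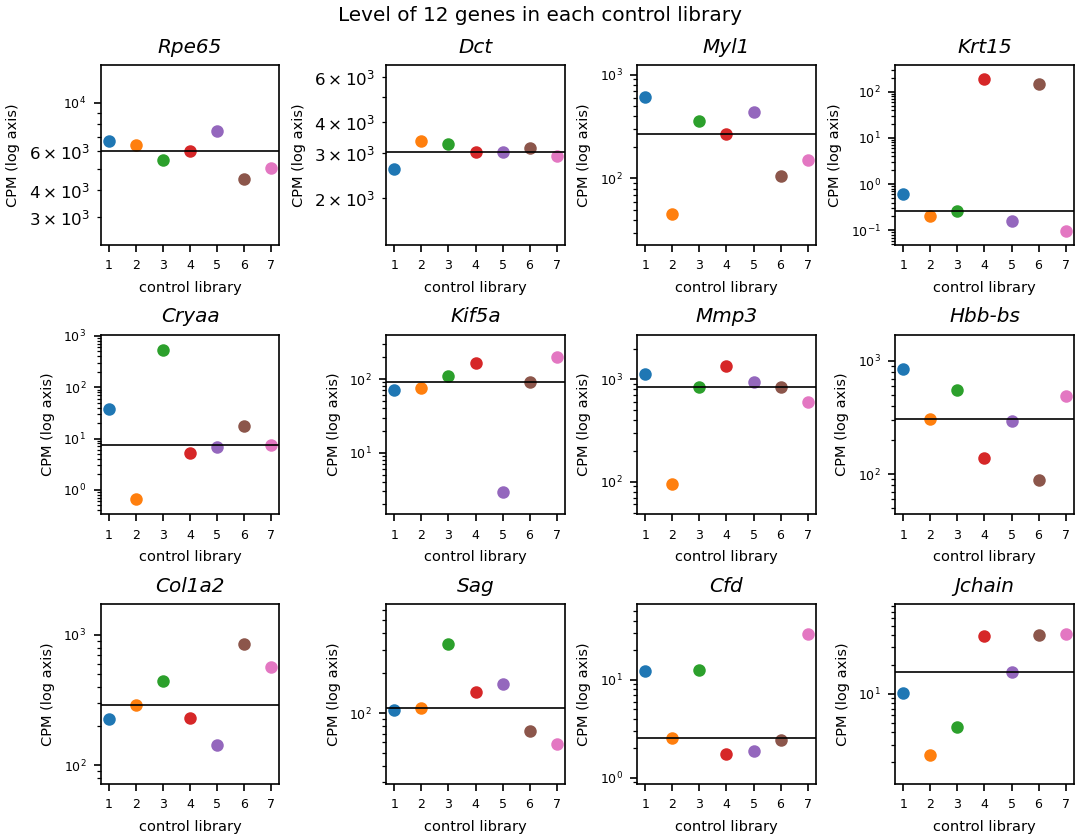
CPM (log axis, scaled separately in each panel) of 12 genes in the 7 control libraries, with a line at the median. Rpe65 and Dct stay between 2604 and 7411 CPM, whereas Krt15 stands above 100 CPM in controls 4 and 6 only, Cryaa and Sag peak in control 3, Kif5a drops in control 5 and Mmp3 and Myl1 are lowest in control 2.

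The mean log2 CPM of the adipocyte, Schwann cell and oligodendrocyte lists was highest in control 7, but not every member followed. Cfd, adipsin, had 29.5 CPM in control 7, 12.2 and 12.6 CPM in controls 1 and 3, and 1.74 to 2.55 CPM in the others. Adipoq, the adipocyte hormone adiponectin, had 5.14 CPM in control 7 and 0.166 to 1.22 CPM elsewhere. In the adipocyte list 5 of 11 members over the filter were variable, but with a median of at least 1 CPM in place of the mean it was 2 of 8, since 3 of the 5 passed the filter through their highest libraries. Pnpla2, Scd1, Acsl1 and Lpl, lipid enzymes made in many tissues, were not variable. Mbp, myelin basic protein, had 193 CPM in control 7 and 38.4 to 82.5 CPM in the rest, and Mobp, an oligodendrocyte myelin protein, 19.4 CPM against 0.0737 to 4.69 CPM. Without control 7 the SD of Mbp fell from 0.78 to 0.39. Of the Schwann cell and myelin list 9 of 14 members over the filter were variable, and of the oligodendrocyte list 3 of 5. With the median filter it was 8 of 13 and 2 of 4, and the lists share members. Among all genes it was 10.4% and 9.66% with these filters. Cldn11 and Egr2 were highest in control 2, at 26.1 and 5.71 CPM, against 17.6 and 3.58 CPM in control 7.

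Immune transcripts were divided. The counts of variable genes here are read against 10.4% of all genes over the filter. Of 24 macrophage and microglia genes 4 were variable: Lyve1, F13a1 and Folr2, markers of resident perivascular macrophages, and P2ry12, a microglial receptor. The first 3 were lowest in control 2, F13a1 for example at 3.07 CPM there and at 6.03 to 16.8 CPM in the others. Ctss, cathepsin S, and C1qb, a complement subunit, were even at 935 to 1311 CPM and 515 to 772 CPM. Among lymphocyte genes 9 of 12 over the filter were variable, and 8 of 11 with a median of at least 1 CPM (9.66% of all genes). Jchain, the joining chain of secreted antibodies, had 39.2, 40.2 and 41.7 CPM in controls 4, 6 and 7 and 2.37 to 16.6 CPM in the others. Mast cell genes were variable in 6 of 7, with Tpsb2, a tryptase, from 9.40 CPM (control 6) to 38.9 CPM (control 3). Of 8 genes in the MHC class II list 2 were variable, Ciita and Cd209a, each with an SD of 0.55. The median SD of the list was 0.43, and its H2 genes and Cd74 were not variable. Cd74, the invariant chain, had an SD of 0.48 and ranged from 731 CPM (control 5) to 1940.5 CPM (control 6).

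Relations between list levels were tested for 45 pairs of 10 lists over the 7 libraries with an exact two-sided permutation test, which can give no p below 0.000198. After Benjamini-Hochberg adjustment 0 pairs were under 0.05, and 4 were under 0.05 before adjustment. The immediate early and circadian lists had the lowest adjusted value, with Pearson's r = 0.86 (exact permutation p = 0.00238, adjusted p = 0.107) and Spearman's rho = 0.82 (exact permutation p = 0.0341, adjusted p = 0.512). Without controls 5 and 6, the libraries farthest from the median of the immediate early list, r was 0.97 (exact permutation p = 0.0417, adjusted p = 0.525). By the median of members, the immediate early and circadian lists had r = 0.27 (exact permutation p = 0.584, adjusted p = 0.877). The relation of these lists thus depended on how their level was summarized. For the RPE and endothelium lists r was -0.74 (exact permutation p = 0.0504, adjusted p = 0.454). Taken as the median of members this pair had r = -0.93 (exact permutation p = 0.000992, adjusted p = 0.0446). Controls 1 and 6 were the libraries farthest from the median of the RPE list. Without them r was -0.06 by the mean (exact permutation p = 0.933) and -0.88 by the median (exact permutation p = 0.0917, adjusted p = 0.464). By the mean of members the relation rested on those libraries, and by the median it was no longer under 0.05. The division by Y-linked genes leaves 3 and 4 libraries, too few for a value within each.

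Promoter sequence was set beside the spread, since genes with high spread moved together in sets. The promoters (RefSeq, GRCm38.p6, 250 bases before to 50 after the start) were searched for TATAA or TATATA on the gene's strand, beginning 45 to 20 bases before the start, where the TATA box lies. Of 32851 promoters in the RefSeq table, 4.26% held such a match, as did 2.53% of the 13182 promoters of genes with a mean of at least 1 CPM. Of the 1355 variable genes 998 had an entry, and 7.77% of their 1236 promoters held a match. For the 219 genes with an SD of at least 1, of which 162 had an entry, it was 18.3% of 191 promoters. For the 100 genes with the largest SD, 77 with an entry, it was 23.6% of 89 promoters. For the 100 with the smallest SD among genes of at least 10 CPM, 82 with an entry, it was 2.56% of 117 promoters. Anywhere in the 300 bases and on both strands, these letters were found in 47.2% and 16.2% of the promoters of the last 2 sets, against 14.8% for genes with a mean of at least 1 CPM and 26.5% for the whole table. The sets were chosen by the spread itself, promoters of 1 gene overlap, and no test was made. Only the last set was limited to a mean of at least 10 CPM, so the sets also differ in level. Related genes such as keratins and crystallins recur among the 100 largest SDs, so these promoters are not independent. The 100 bases before the RefSeq start are shown for a lens, a globin and a keratin gene and for the least variable named gene. Each is 5′ to 3′ on the gene's strand, with a match in capitals. For Cryaa these bases lie inside the gene's span given above, which is from GENCODE M21.

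Cryaa, chr17:31677831-31677930, plus strand: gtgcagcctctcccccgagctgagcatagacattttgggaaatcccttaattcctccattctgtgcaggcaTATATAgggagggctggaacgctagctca
Hbb-bs, chr7:103827929-103828028, minus strand: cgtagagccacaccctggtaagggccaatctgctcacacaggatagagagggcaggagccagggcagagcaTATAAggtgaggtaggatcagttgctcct
Krt5, chr15:101712906-101713005, minus strand: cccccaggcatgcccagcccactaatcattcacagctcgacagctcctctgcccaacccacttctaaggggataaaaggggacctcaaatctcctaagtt
Ddx24, chr12:103425848-103425947, minus strand: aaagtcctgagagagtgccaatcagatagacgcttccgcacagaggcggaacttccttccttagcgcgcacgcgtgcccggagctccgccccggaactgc

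The match begins 29 bases before the start in Cryaa and in Hbb-bs. Neither string was found in that window for Krt5 or Ddx24, which says only that these letters are not there.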

How the data were processed

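Per the labels' protocols, TRIzol samples were cleaned on NucleoSpin columns and SMARTer was used for cDNA. Per the submitters' processing notes, bcl2fastq, DRAGEN, edgeR and limma were used on GRCm38. No version, counter, strand setting or annotation release is stated in the sources used here, and without strand, overlapping genes cannot be told apart. The authors deposited raw read counts per Ensembl gene, not normalized. The table's 40757 entries held 276 repeats with identical counts, and 40481 genes remained. No control library repeated another (lowest chi-square per gene of any pair 33.8).

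TMM factors and log2 CPM (prior count 2) came from edgeR 4.0.16 in R 4.3.3 on the 7 control libraries alone. Protein-coding genes with a mean of at least 1 CPM were kept. The spread calculations were tested on simulated data. Exon lengths and positions came from GENCODE M21 (GRCm38), which held 99.7% of protein-coding genes. Correlations and their exact permutation tests used NumPy 2.4.6, with ranks for Spearman's rho from SciPy 1.17.1.

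Genes were named by rule: the 15 largest by share and by length-normalized level, the 25 largest SDs, the 10 largest SDs among genes of at least 100 CPM, the 10 smallest SDs among genes of at least 10 CPM, up to 4 most abundant and 4 most variable members of each list, and 6 genes of the design. Predicted gene names were left out of the first 4. Further named genes were chosen after their values were seen. The 37 lists and the rule were chosen with earlier results of these data known. SMARTer counts without molecular identifiers hold amplified copies, so counting error is a lower limit.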

Additional observations from a re-analysis of the deposited data

Results flagged for a closer look

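In groups of 7 libraries, the gap of the extreme library to its nearest neighbour was compared with the whole range, and chance alone passes the limit of 0.568 for about 1 in 20 groups. Of 320 lists and named genes examined, 10 passed, 3.13%, each with 1 library below the rest. That share is below 1 in 20. Many of the named genes were chosen by their SD in these same libraries, and genes of a list move together. The 1 in 20 is thus not a test of these genes, and the 10 are listed as description. On the log2 CPM scale, control 5 was the low library for Kif5a (1.56), Gfap (2.12), Kcnj10, a glial potassium channel (-0.30), Best1 (0.18) and the level of the immediate early list (3.03). Control 2 was the low library for Mmp3 (6.59), Angptl7 (5.05), Myh1 (1.39) and Myh2 (-0.79). Control 4 was the low library for Gpd1l, a glycerol-3-phosphate dehydrogenase homologue (4.30, against 4.39 in the nearest library), in a gene whose SD was 0.04.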

How the results depend on the processing

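The number of genes holding 50% of protein-coding counts, 322, was 342 without mitochondrially encoded genes, 315 to 327 when single libraries were left out, and 130 or 176 on the length-normalized scale. The 1355 variable genes became 312 with a mean of at least 10 CPM, 5218 without a filter on low counts, and 219 at an SD of at least 1. Leaving out single libraries gave 1186 to 1456, and RLE size factors gave 1331. The common coefficient of variation, 0.236, was 0.182 with a mean of at least 10 CPM, 0.279 without a filter and 0.226 to 0.242 without single libraries. Lists with an SD of their level of at least 0.5 numbered 9, 13 as the median of members, and 9 to 11 without single libraries. Pairs of lists under an adjusted p of 0.05 numbered 0, and 1 as the median of members (exact permutation test). The length by median transcript, the SD of at least 1, the median filter (1246 of 12901 genes variable, 9.66%), the splits by largest gap and the promoter search were chosen after seeing the data. No paired analysis was possible because a single group was used. Levels of a few counts, as for the keratins outside controls 4 and 6, set the size of the largest SDs: with a prior count of 0.5 in place of 2 the SD of Ddx3y was 6.18 in place of 5.44.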

Other observations

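Outside the protein-coding genes, long intergenic non-coding RNAs held 3.19 ± 0.42% of all counts (SD, n = 7), mitochondrial ribosomal RNA 0.735 ± 0.22% and processed pseudogenes 0.563 ± 0.10%. Immunoglobulin constant genes, which the table types apart from protein-coding genes, held 0.00457% to 0.0414% of counts over the 7 libraries.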
